A study of Homo sapiens with 12 samples.

Results

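The collagen chain genes were taken as the protein-coding genes whose symbol is COL, a number, A and a number, and 44 of the 65969 gene identifiers in the deposited table met this definition. By the kind of assembly their products enter, 11 encode fibrillar chains, 9 chains of basement membranes and their anchoring fibrils, 5 chains of beaded filaments, 3 short chains, 10 fibril-associated chains (FACIT, short for fibril-associated collagens with interrupted helices), 4 transmembrane chains and 2 other chains. After the filter on low counts 42 of the 44 were tested. COL10A1, the hypertrophic cartilage chain, and COL6A5 were not. COL11A2 shares identical counts with 1 other identifier of the table, so its level is uncertain. COL10A1 was listed at 0 in all libraries except MEL1 KD2, where it reached 0.0450 CPM (counts per 1000000 of the library's scaled total).

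A collagen is built from chains that wind around each other into a stiff helix, and the cell must hydroxylate, fold, secrete and trim them before they assemble. Fibrillar collagens form the tension-bearing fibres of connective tissue, type IV collagens form the sheet under epithelia and around vessels, and FACIT collagens coat fibrils. In early embryos and in embryoid bodies, type IV collagen is laid down with laminin by the first epithelia, while types II, IX and XI, best known from cartilage, are also made by embryonic neural and notochordal tissue.

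The libraries were total RNA of embryoid bodies, which are suspended aggregates of differentiating human embryonic stem cells, from the established lines H1 and MEL1. Each line carried a lentiviral (SMARTvector), doxycycline-inducible short hairpin, either against METTL14 (KD1, KD2 or KD3) or a control (SCR), and transduced cells had been selected with puromycin at 2 µg/ml, with no clones named. METTL14 is a subunit of the enzyme complex that methylates adenosines in RNA. All groups, SCR included, carried the vector and received doxycycline at 2 µg/ml for the 10 days after seeding at 500 cells per microwell. H1 had 2 libraries each of SCR, KD1, KD2 and KD3. MEL1 had 1 SCR, 2 KD1 and 1 KD2 library, and no KD3 library. The labels do not say whether libraries of a group came from separate cultures, so p-values measure only the spread between these libraries, which may be technical.

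Total estimated counts ran from 15963241 in MEL1 SCR, the smallest library, to 43508287. METTL14 was at 29.8 and 43.8 CPM in H1 SCR and between 8.89 and 17.7 CPM in the 6 H1 knockdown libraries. In MEL1 it was at 49.9 CPM in SCR and between 5.94 and 8.95 CPM in the 3 knockdown libraries. Its fall over both lines was called by the edgeR quasi-likelihood test (-1.96 ± 0.23, adjusted p = 0.00266; values of this form are the log2 fold change ± its standard error, and adjusted p-values are Benjamini-Hochberg over 24898 tested genes). The lines differed in the levels of marker RNAs. All 6 neuroectoderm markers were lower in MEL1, beside 26.2% of all tested genes. Their summed level was 86.3 to 131 CPM in MEL1 against 362 to 741 CPM in H1. Of the 4 pluripotency markers 3 were higher in MEL1, beside 23.0% of all tested genes. The remaining marker, SOX2, was at 428 CPM in MEL1 SCR, 329 and 323 in KD1 and 233 in KD2. In the H1 libraries SOX2 ran at 417 to 749 CPM. These are bulk libraries, in which fewer cells of a type and less RNA per cell cannot be told apart.

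Per length, the most abundant collagen RNAs in H1 were those of the type II, XXVI, IV and I chains. Of the 44 genes, 20 had a mean of at least 10 CPM over the 12 libraries, 14 had a mean of 1 to 10 CPM and 10 had a mean under 1 CPM. Those with at least 10 CPM were 7 fibrillar chains, 6 of the basement membrane group, 2 of type VI, 4 FACIT chains and COL26A1. Set against transcript length, the highest level in H1 was that of COL2A1, the chain of type II collagen, at 63.0 ± 10.3 CPM per kb (SD, n = 8 libraries over all hairpins). COL26A1, a short chain first described in testis and ovary, followed in H1 at 53.6 ± 4.15 CPM per kb, within the spread of COL2A1. The next levels in H1 were COL4A2 at 38.0 ± 5.75 and COL1A2 at 34.1 ± 6.30 CPM per kb, which lie within each other's spread.

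The order was different in MEL1. There COL1A2, a chain of type I collagen, was highest at 45.0 ± 16.6 CPM per kb (SD, n = 4), followed by COL26A1 at 34.7 ± 7.14, COL6A1 at 29.8 ± 6.18 and COL6A2 at 28.5 ± 9.78. These 4 levels overlap within their spread. COL2A1 ranked 10 of 44 in MEL1, at 17.6 ± 3.32 CPM per kb. Summed over the 44 genes, collagens took 1984 to 2622 CPM in H1 libraries and 1271 to 2214 CPM in MEL1 libraries. The ranges overlapped only through the MEL1 KD2 library, and the MEL1 SCR and KD1 libraries were at 1271 to 1696 CPM. In per-kb terms fibrillar chains made up 27.8% (MEL1 SCR) to 35.4% (an H1 KD3 library) of the collagen sum, and basement membrane chains 22.1% (a MEL1 KD1 library) to 36.1% (an H1 SCR library).

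**Figure D1:**
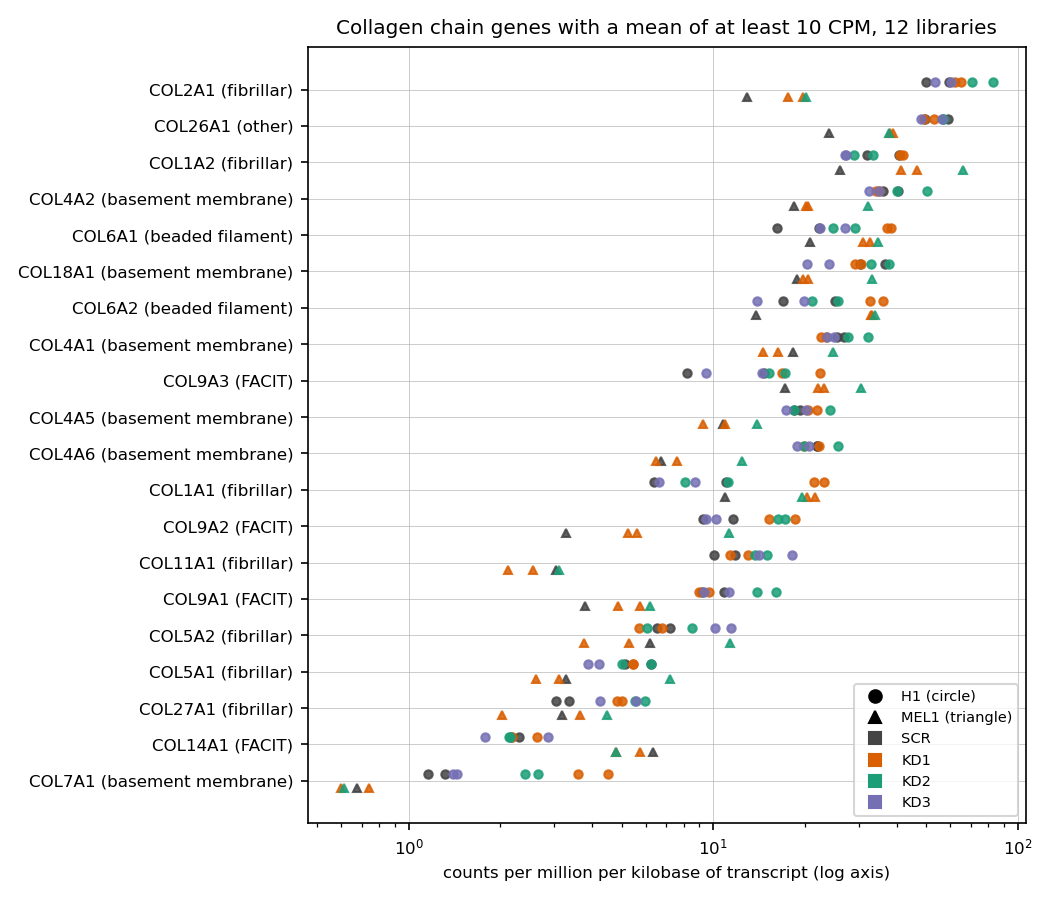
Level of each collagen chain gene with a mean of at least 10 CPM, in CPM per kilobase of transcript on a log axis, with 1 point per library (circles H1, triangles MEL1, colours for the hairpin). COL2A1 and COL26A1 lead in H1, and the MEL1 triangles of COL2A1, COL11A1, COL4A5, COL4A6 and COL7A1 all lie below the H1 circles.

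More collagens differed between the lines than with any hairpin. Over matched hairpins (SCR, KD1 and KD2), 26 of the 42 tested collagens were called by edgeR, against 49.1% of all tested genes: 12 were higher in MEL1 and 14 lower (23.0% and 26.2% of all tested genes). Between the KD1 libraries by themselves 8 were higher and 14 lower, beside 40.4% of all tested genes (20.3% higher, 20.1% lower). Wherever it is given, this KD1 comparison is a contrast of the same fit to all libraries, which set its scaling and spread. With each library's trend on transcript GC content and length removed, the split was 18 higher and 12 lower. Of the 26 calls, 18 held in all alternatives of scaling, filter, tool, trend removal and left-out library and in the KD1 contrast. The labels give no batch, so a batch that follows the lines and the lines themselves cannot be told apart.

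Among fibrillar chains, 3 were higher in MEL1, 3 were lower and 5 of the 11 did not pass the test. COL3A1, the chain of the type III collagen of soft tissue and vessels, ran at 0.403 to 1.34 CPM with a median of 0.897 over the 8 H1 libraries. It was at 3.95 CPM in MEL1 SCR, 18.5 and 14.9 in KD1 and 19.0 in KD2. All MEL1 libraries lay above all H1 libraries, and the difference was called (3.52 ± 0.27, adjusted p = 2.28e-06). COL5A3, a minor type V chain, ran at 0.535 to 2.50 CPM with a median of 1.19 over the 8 H1 libraries, and was at 4.02 CPM in MEL1 SCR, 8.90 and 10.4 in KD1 and 8.05 in KD2. These ranges did not overlap either, and MEL1 was higher (2.57 ± 0.21, adjusted p = 2.06e-06).

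The type II and XI chains went the other way. COL2A1 ran at 253 to 421 CPM with a median of 309.9 over the 8 H1 libraries, and was at 65.6 CPM in MEL1 SCR, 100.2 and 89.5 in KD1 and 102 in KD2. COL11A1, which is built into type II fibrils, ran at 73.6 to 133 CPM with a median of 98.0 over the 8 H1 libraries, and was at 22.4 CPM in MEL1 SCR, 18.7 and 15.5 in KD1 and 22.7 in KD2. For both genes every MEL1 library lay below every H1 library (COL2A1 -1.92 ± 0.10, adjusted p = 4.36e-08; COL11A1 -2.14 ± 0.12, adjusted p = 7.68e-08). The type V chain COL5A1 was called lower in MEL1 (-0.45 ± 0.10, adjusted p = 0.00344), with overlapping ranges, and the call was lost without the MEL1 SCR library (adjusted p = 0.0625) and with the GC and length trend removed (adjusted p = 0.214). COL1A2 was called higher (0.23 ± 0.09, adjusted p = 0.0496), but 8 of the 12 fits that left out 1 library lost the call, and without the MEL1 KD2 library its sign turned (-0.20, adjusted p = 0.145). That library had 358 CPM of COL1A2, the highest of the 12, and without the MEL1 SCR library, the lowest, the difference was 0.58. Leaving out either library also took its hairpin in H1 out of the contrast, so both values compare fewer matched hairpins. Between the KD1 libraries by themselves it was 0.08 (adjusted p = 0.666).

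COL3A1 and COL5A2, which makes a type V chain, lie side by side on chromosome 2 (COL3A1 at chr2:188974320-189012746 on the plus strand, COL5A2 at chr2:189031896-189225312 on the minus strand, GENCODE release 29 on GRCh38). The log2 difference between MEL1 and H1 was 3.52 ± 0.27 for COL3A1 and 0.01 ± 0.13 for COL5A2, whose adjusted p was 0.975.

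Of the 9 basement membrane chains, 6 were lower in MEL1, COL4A4 was higher and COL15A1 and COL4A3 did not pass the test. Type IV chains are encoded as pairs of genes that start next to each other and read in opposite directions. By RefSeq starts on GRCh38.p14, 126 bases separate COL4A1 from COL4A2 on chromosome 13, 418 bases COL4A4 from COL4A3 on chromosome 2, and 379 bases COL4A6 from COL4A5 on the X chromosome. The last 250 bases before the COL4A5 start fill most of the gap to COL4A6 and are shown because both genes of that pair were lower in MEL1. They lie at chrX:108439588-108439837 on the plus strand (RefSeq, GRCh38.p14), capitals mark CCAAT on either strand (ATTGG on the other), and neither GGGCGG nor TATAAA is in this window.
COL4A5: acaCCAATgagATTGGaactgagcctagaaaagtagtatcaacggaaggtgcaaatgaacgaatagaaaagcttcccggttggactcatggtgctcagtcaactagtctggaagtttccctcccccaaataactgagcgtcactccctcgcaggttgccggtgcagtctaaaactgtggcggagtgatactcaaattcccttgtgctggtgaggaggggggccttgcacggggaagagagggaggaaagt

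Of 32 collagen genes with a promoter entry, 9 hold CCAAT on either strand in the 250 bases before the start, and 33.0% of 27305 genes do. The match is a description of these letters.

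COL4A5 ran at 113 to 157 CPM with a median of 128 over the 8 H1 libraries, and was at 69.5 CPM in MEL1 SCR, 70.9 and 60.0 in KD1 and 90.02 in KD2. COL4A6 ran at 127 to 174 CPM with a median of 143 over the 8 H1 libraries, and was at 45.3 CPM in MEL1 SCR, 51.4 and 43.6 in KD1 and 83.8 in KD2. Both were lower in every MEL1 library than in any H1 library (COL4A5 -0.84 ± 0.10, adjusted p = 3.95e-05; COL4A6 -1.39 ± 0.10, adjusted p = 7.4e-07). The per-kb ratio of COL4A6 to COL4A5 was 0.968 to 1.18 in the H1 libraries and 0.626 to 0.894 in the MEL1 libraries, and these ranges did not overlap.

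COL4A1 and COL4A2, the chains of the common type IV network, ran at 149 to 214 CPM with a median of 166 over the 8 H1 libraries and 211 to 327 CPM with a median of 231 over the 8 H1 libraries. COL4A1 was at 121 CPM in MEL1 SCR, 108 and 96.2 in KD1 and 163 in KD2. COL4A2 was at 119.6 CPM in MEL1 SCR, 133 and 131 in KD1 and 209 in KD2. The COL4A1 ranges overlapped through the MEL1 KD2 library and the COL4A2 ranges did not, and both were called lower in MEL1 (COL4A1 -0.46 ± 0.08, adjusted p = 0.000436; COL4A2 -0.77 ± 0.09, adjusted p = 2.14e-05). The per-kb ratio of COL4A1 to COL4A2 stayed between 0.641 and 0.767 in H1 and between 0.721 and 0.993 in MEL1. COL4A4, a chain of the kidney and lens networks, was low in H1 (0.297 to 1.07 CPM with a median of 0.486 over the 8 H1 libraries) and was at 2.59 CPM in MEL1 SCR, 1.71 and 1.15 in KD1 and 4.93 in KD2 (2.20 ± 0.30, adjusted p = 0.000104). Its partner COL4A3 was at most 0.315 CPM in any library.

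COL7A1 makes the fibrils that anchor the skin basement membrane. It ran at 10.8 to 41.8 CPM with a median of 17.8 over the 8 H1 libraries, and was at 6.27 CPM in MEL1 SCR, 6.85 and 5.54 in KD1 and 5.69 in KD2, so that all MEL1 values lay below all H1 values (-1.84 ± 0.12, adjusted p = 4.8e-07). COL18A1, whose product releases endostatin, ran at 134 to 249 CPM with a median of 200.8 over the 8 H1 libraries, and was at 124 CPM in MEL1 SCR, 134 and 129.6 in KD1 and 219 in KD2. It was called lower in MEL1 (-0.50 ± 0.09, adjusted p = 0.000656) and turned higher with the GC and length trend removed (0.17 ± 0.07, adjusted p = 0.048). Its transcript has a GC content of 67.2%.

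The FACIT group split by type. COL9A1 and COL9A2, chains of the type IX collagen that coats type II fibrils, were lower in MEL1 (COL9A1 -1.16 ± 0.10, adjusted p = 4.13e-06; COL9A2 -1.29 ± 0.11, adjusted p = 2.16e-06). COL9A1 ran at 42.6 to 76.7 CPM with a median of 48.8 over the 8 H1 libraries, and was at 18.1 CPM in MEL1 SCR, 23.2 and 27.3 in KD1 and 29.4 in KD2, without overlap. COL9A3, the partner chain of both, was called higher (0.57 ± 0.18, adjusted p = 0.0294), a call lost without H1 KD1 library 1, H1 KD2 library 1 or any 1 of the 4 MEL1 libraries (adjusted p = 0.0631 to 0.177) and between the KD1 libraries by themselves (0.20, adjusted p = 0.605). The per-kb ratio of COL9A1 to COL9A3 was 0.399 to 1.32 in H1 and 0.202 to 0.259 in MEL1.

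COL14A1, a fibril-associated chain of tendon and skin, ran at 11.5 to 18.6 CPM with a median of 14.02 over the 8 H1 libraries, and was at 41.0 CPM in MEL1 SCR, 37.1 and 31.0 in KD1 and 30.9 in KD2 (1.27 ± 0.13, adjusted p = 1.52e-05). COL21A1 was near absent in H1, at 0.0469 to 0.392 CPM with a median of 0.235 over the 8 H1 libraries, and was at 5.04 CPM in MEL1 SCR, 3.22 and 3.30 in KD1 and 5.49 in KD2 (4.21 ± 0.32, adjusted p = 1.2e-06). For both, the 4 MEL1 libraries lay above the 8 H1 libraries. COL12A1 ran at 0.300 to 1.86 CPM with a median of 1.34 over the 8 H1 libraries, and was at 5.11 CPM in MEL1 SCR, 1.59 and 1.66 in KD1 and 3.28 in KD2. It was higher with overlap (1.54 ± 0.28, adjusted p = 0.000789), but was not called between the KD1 libraries by themselves (0.55, adjusted p = 0.344), and COL16A1 was lower (-0.68 ± 0.12, adjusted p = 0.00072). COL19A1 was called higher (3.21 ± 0.96, adjusted p = 0.0182) at levels of 0 to 0.545 CPM, and the call was lost without MEL1 KD1 library 1 (adjusted p = 0.064) or the MEL1 KD2 library (1.24, adjusted p = 0.346) and between the KD1 libraries by themselves (0.23, adjusted p = 0.906).

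Of the remaining families, the short chain COL8A2, a component of the corneal Descemet membrane, ran at 0.372 to 0.860 CPM with a median of 0.510 over the 8 H1 libraries, and was at 3.41 CPM in MEL1 SCR, 5.58 and 4.19 in KD1 and 1.46 in KD2, higher without overlap (2.28 ± 0.21, adjusted p = 5.58e-06). Its partner COL8A1 was called lower (-2.58 ± 0.89, adjusted p = 0.0323) at levels of 0 to 0.532 CPM, a call lost without H1 KD1 library 1, H1 KD2 library 2, H1 SCR library 2 or the MEL1 SCR library (adjusted p = 0.0557 to 0.7). Without the MEL1 SCR library the COL8A1 value was -0.30 and between the KD1 libraries by themselves -0.94, and the call was also lost with DESeq2 (adjusted p = 0.109) and without the filter on low counts (0.0625). The transmembrane chain COL13A1, found at neuromuscular junctions, ran at 2.66 to 5.61 CPM with a median of 4.13 over the 8 H1 libraries, and was at 10.2 CPM in MEL1 SCR, 8.93 and 8.98 in KD1 and 11.9 in KD2, higher without overlap (1.21 ± 0.16, adjusted p = 8.5e-05). COL17A1, the hemidesmosome chain, was called higher (0.74 ± 0.27, adjusted p = 0.039), and 8 of the 12 fits that left out 1 library lost the call (adjusted p up to 0.272, without the MEL1 KD2 library), as did the KD1 libraries by themselves (0.28). COL26A1 ran at 146 to 178 CPM with a median of 166 over the 8 H1 libraries, and was at 72.9 CPM in MEL1 SCR, 115 and 118 in KD1 and 115 in KD2, lower without overlap (-0.72 ± 0.08, adjusted p = 2.57e-05). Of the type VI chains 4 were tested and none passed (0 by edgeR and 0 by DESeq2, and 0 at an unadjusted p under 0.05), while with the GC and length trend removed COL6A1 (0.46 ± 0.07, adjusted p = 0.000161), COL6A2 and COL6A3 were called higher. Without overlap of any library, 7 tested collagens were above and 8 below H1, against 12.3% and 13.0% of all tested genes.

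Markers of other tissues were also called between the lines, where 49.1% of all tested genes were called (23.0% higher in MEL1, 26.2% lower). Of the 7 mesenchyme and fibroblast markers, 4 were higher in MEL1 (DCN, LUM, POSTN and TWIST1) and 2 lower (PDGFRA and PDGFRB), with a summed level of 29.6 to 35.0 CPM in H1 and 25.0 to 38.9 CPM in MEL1. Of the 5 cartilage markers, ACAN and HAPLN1 were higher and SOX9 lower in MEL1, with a summed level of 86.9 to 147 CPM in H1 and 109 to 417 CPM in MEL1, while COL2A1, COL11A1 and COL9A1 were lower there. All 4 neural crest markers were higher in MEL1 (34.9 to 54.8 CPM summed in H1, 101 to 344 CPM in MEL1). Of 7 endoderm markers 6 were tested, and AFP, GATA6 and TTR were higher in MEL1, with a summed level of 0.570 to 1.35 CPM in H1 and 1.43 to 16.01 CPM in MEL1. SOX17 and FOXA2, which define endoderm, were at 0 to 0.427 CPM in every library. Of 5 epithelium markers 3 were tested and all 3 (KRT8, KRT18 and TP63) were higher in MEL1, with a summed level of 494 to 871 CPM in H1 and 865 to 1217 CPM in MEL1. Of the 4 endothelium markers CDH5, KDR and TIE1 were lower in MEL1. The summed level was 64.0 to 164 CPM in H1 and 61.1 to 103 CPM in MEL1, most of it KDR. The part of these tissues in the collagen differences was not tested.

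**Figure D2:**
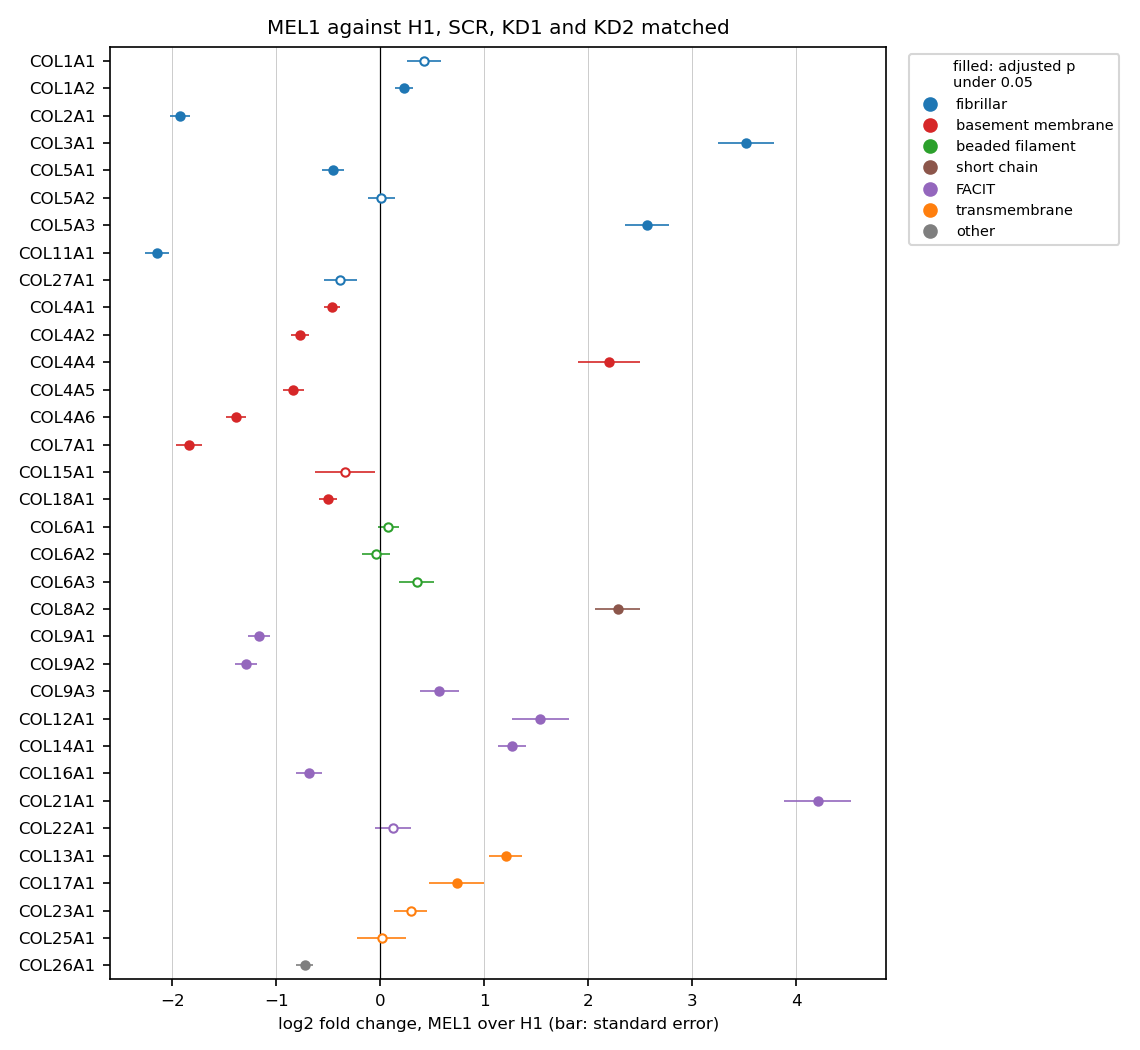
Log2 fold change of MEL1 over H1 for the 34 collagen chain genes whose mean reached 1 CPM, by family, with SCR, KD1 and KD2 matched; bars are standard errors and filled points have an adjusted p under 0.05. COL3A1 and COL21A1 lie farthest to the right and COL11A1, COL2A1 and COL7A1 farthest to the left.

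Whether METTL14 knockdown changed collagen levels in both lines was asked with all 9 knockdown libraries against the 3 SCR libraries. No collagen was called by edgeR (0 of 42, against 0.213% of all tested genes, 0.0562% higher and 0.157% lower). At an unadjusted edgeR p under 0.05 there were 7 of 42, beside 3918 of 24898 tested genes. DESeq2 called 2, COL6A1 and COL22A1, both higher. The 7 were COL2A1, COL6A1, COL9A2, COL9A3, COL16A1, COL22A1 and COL27A1, all with higher fitted levels in the knockdown, and the lowest edgeR adjusted p was 0.104 (COL6A1, 0.64 ± 0.16). The median log2 fold change of the 42 tested collagens was 0.23, beside 0.05 over all tested genes. Removal of the GC and length trend gave the collagens a median of 0.09. A single collagen was called when MEL1 KD1 library 2 was left out.

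Calls appeared when the hairpins were taken in H1 by themselves. Averaged over KD1, KD2 and KD3, 3 collagens were called against H1 SCR, beside 7.16% of all tested genes (2.23% higher, 4.93% lower). COL7A1 (0.98 ± 0.14, adjusted p = 0.00518) and COL6A1 (0.61 ± 0.13, adjusted p = 0.0227) rose, and COL6A3 (-0.998 ± 0.20, adjusted p = 0.0167) fell. None was called without H1 SCR library 2. The COL6A1 call was also lost without KD1 library 1 or 2 (adjusted p = 0.0576 and 0.0502), and the COL6A3 call without SCR library 1 (0.142). With the GC and length trend removed 3 were higher and 3 lower, with COL11A1 added above and COL5A1 and COL18A1 below. By range, 5 tested collagens lay above both SCR libraries in all 6 knockdown libraries (COL6A1, COL7A1, COL16A1, COL22A1 and COL27A1), beside 8.61% of all tested genes, and 2 lay below (COL6A3 and COL8A1), beside 11.7%. In MEL1, COL6A3 and COL8A1 were higher in every knockdown library than in SCR. COL6A1, COL16A1 and COL22A1 were higher there too, while COL7A1 and COL27A1 overlapped with SCR.

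**Figure D3:**
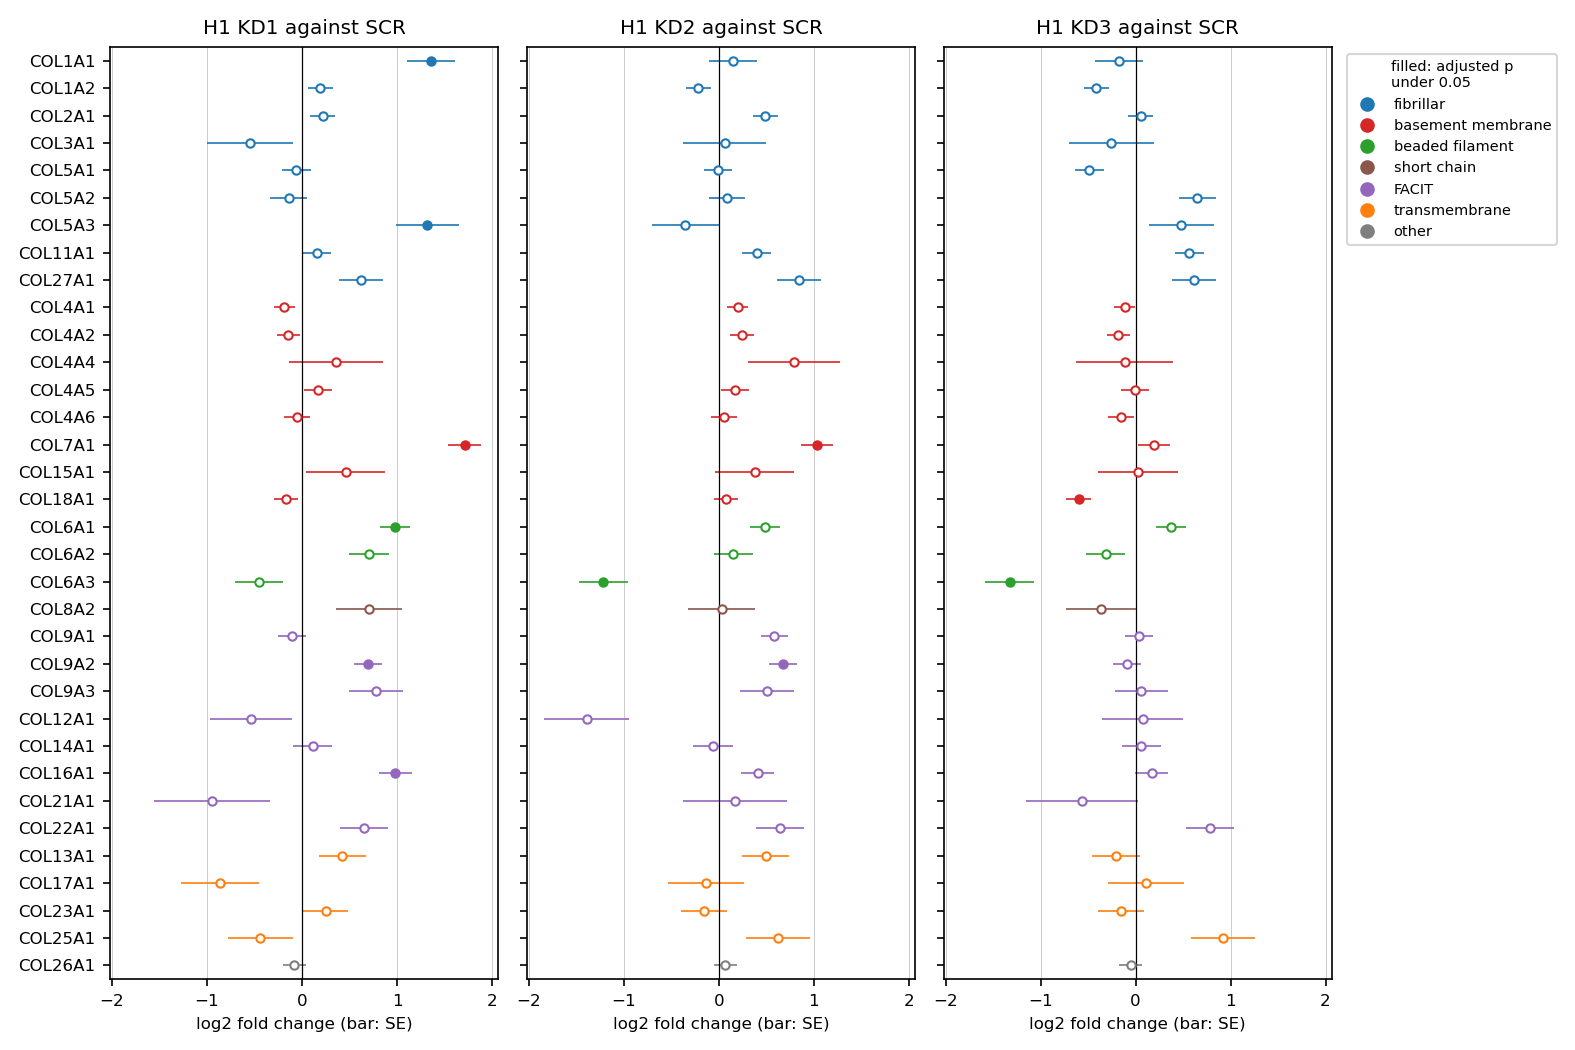
Log2 fold change of each H1 hairpin against H1 SCR for the 34 collagen chain genes whose mean reached 1 CPM, by family; bars are standard errors and filled points have an adjusted p under 0.05. KD1 has 6 filled points, all to the right, KD2 has COL7A1 and COL9A2 to the right and COL6A3 to the left, and KD3 has COL18A1 and COL6A3 to the left.

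Against H1 SCR, 6 collagens rose in KD1 and none fell (11.1% of all tested genes were called, 4.25% higher and 6.83% lower). The 6 came from 4 families: the fibrillar COL1A1 and COL5A3, the anchoring fibril chain COL7A1, the type VI chain COL6A1 and the FACIT chains COL9A2 and COL16A1. In KD2, COL7A1 and COL9A2 rose and COL6A3 fell, with 1.54% of all tested genes called (0.691% higher, 0.851% lower). In KD3, COL6A3 and COL18A1 fell and none rose, with 2.98% called (1.19% higher, 1.79% lower). These comparisons share the same 2 SCR libraries.

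With the GC and length trend removed, the KD1 calls became 5 higher and 5 lower, because COL5A3 and COL9A2 were lost, COL24A1 was added above, and COL4A1, COL4A2, COL5A1, COL18A1 and COL26A1 were added below. The KD3 calls became 2 higher (COL5A2 and COL11A1) and 4 lower (COL1A2, COL5A1, COL6A3 and COL18A1). The KD2 split was 1 higher and 1 lower under median-of-ratios and upper-quartile scaling. Without either KD1 library 2 collagens were called in KD1, and without SCR library 2 there were 3. Without SCR library 2 or either KD2 library none was called in KD2, and without SCR library 1 or either KD3 library none in KD3.

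Among the called collagens COL7A1 had the largest KD1 rise. It was at 12.2 and 10.8 CPM in the SCR libraries, 41.8 and 33.4 in KD1, 22.3 and 24.6 in KD2 and 12.9 and 13.3 in KD3. KD1 lay highest, KD2 next, and KD3 just above SCR, with no overlap between the KD1, KD2 and KD3 pairs. The rise was called in KD1 (1.71 ± 0.17, adjusted p = 0.00145) and KD2 (1.03 ± 0.17, adjusted p = 0.0162), and KD3 was at 0.20 ± 0.17, adjusted p = 0.578. The KD1 call held in all 17 alternatives, with an adjusted p of at most 0.0325. The KD2 call was lost without either KD2 library (adjusted p = 0.0539 and 0.126) or SCR library 2 (0.107). The 5 epithelium markers summed to 668 to 743 CPM in H1 SCR and 494 to 871 CPM in the H1 knockdown libraries, nearly all of it KRT8 and KRT18, while KRT5 and KRT14 of surface epithelium were at 0 to 0.0537 CPM in H1.

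The gene lies at chr3:48564073-48595267 on the minus strand (GENCODE release 29, GRCh38). The 250 bases before its RefSeq start are shown because it had the largest rise among called collagens; they lie at chr3:48595330-48595579, minus strand, GRCh38.p14. Capitals mark 3 matches to GGGCGG and 1 to TATAAA on either strand (CCGCCC and TTTATA on the other), no marked match overlaps another, and CCAAT is not in this window.
COL7A1: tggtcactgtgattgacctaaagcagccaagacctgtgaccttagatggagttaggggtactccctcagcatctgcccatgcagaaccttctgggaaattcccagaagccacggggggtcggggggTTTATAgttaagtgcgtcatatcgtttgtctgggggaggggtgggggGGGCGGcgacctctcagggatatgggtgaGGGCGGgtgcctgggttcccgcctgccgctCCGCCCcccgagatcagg

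GGGCGG occurs on either strand in this window in 18 of 32 collagen genes with a promoter entry and in 42.3% of 27305 genes, and TATAAA in 5 of 32 and 11.1%.

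The type I chains parted. COL1A1 was at 73.9 and 42.9 CPM in the SCR libraries, 144 and 156 in KD1, 54.4 and 75.1 in KD2 and 58.7 and 44.6 in KD3. Both KD1 libraries lay far above the rest, and the KD2 and KD3 libraries overlapped with SCR. The KD1 rise was called (1.36 ± 0.25, adjusted p = 0.0135) and was lost without KD1 library 1 (0.0764) or 2 (0.0781). COL1A2 was at 219.8 and 173 CPM in the SCR libraries, 227 and 223 in KD1, 157 and 181 in KD2 and 147 and 148 in KD3, with no call against SCR. Type I collagen takes more of the COL1A1 than of the COL1A2 chain, and the per-kb ratio of COL1A1 to COL1A2 was 0.270 and 0.199 in SCR, 0.511 and 0.562 in KD1, 0.279 and 0.334 in KD2 and 0.321 and 0.242 in KD3.

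The type VI chains also parted. COL6A1 was at 94.2 and 68.4 CPM in the SCR libraries, 163 and 157 in KD1, 105 and 124 in KD2 and 115 and 95.3 in KD3. All 6 knockdown libraries lay above both SCR libraries, and the KD1 rise was called (0.98 ± 0.16, adjusted p = 0.00622), though not without KD1 library 1 (0.059). COL6A3, the long chain that joins COL6A1 and COL6A2 in the type VI filament, was at 5.02 and 3.60 CPM in the SCR libraries, 2.98 and 3.30 in KD1, 1.78 and 1.94 in KD2 and 1.77 and 1.66 in KD3. All 6 knockdown libraries lay below both SCR libraries. The fall was called in KD2 (-1.21 ± 0.26, adjusted p = 0.0448) and KD3 (-1.33 ± 0.26, adjusted p = 0.0252), and KD1 was at -0.45 ± 0.25, adjusted p = 0.281. The KD2 call was lost in 10 of 12 fits that left out 1 library, that is without any 1 H1 library or either MEL1 KD1 library (adjusted p up to 0.215), and the KD3 call without either KD3 library or SCR library 1 (adjusted p up to 0.167). In MEL1 COL6A3 went the other way, at 2.73 CPM in SCR, 3.94 and 3.21 in KD1 and 5.35 in KD2. The per-kb ratio of COL6A3 to COL6A1 was 0.0210 and 0.0208 in the H1 SCR libraries and 0.00608 to 0.00828 in the 6 H1 knockdown libraries. The MEL1 ratio was 0.0122 in SCR, 0.0112 and 0.00963 in KD1 and 0.0143 in KD2. COL6A2 in H1 was at 87.1 and 58.7 CPM in the SCR libraries, 113 and 125 in KD1, 72.8 and 89.1 in KD2 and 68.9 and 48.3 in KD3, with no call against SCR.

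Among FACIT chains, COL9A2 was at 33.3 and 26.6 CPM in the SCR libraries, 43.6 and 53.0 in KD1, 46.6 and 49.1 in KD2 and 27.1 and 29.3 in KD3. KD1 and KD2 lay above SCR, and KD3 lay within the SCR range. It was called in KD1 (0.69 ± 0.15, adjusted p = 0.0159) and KD2 (0.68 ± 0.15, adjusted p = 0.0492). The KD1 call was lost without either KD1 library or SCR library 2 (adjusted p up to 0.127) and with the GC and length trend removed (0.0767), and the KD2 call in 11 of 12 fits that left out 1 library, all but the one without the MEL1 KD2 library. COL16A1, found in skin and around smooth muscle, was at 9.04 and 7.64 CPM in the SCR libraries, 15.2 and 17.8 in KD1, 11.5 and 10.7 in KD2 and 9.32 and 9.47 in KD3 and rose in KD1 (0.98 ± 0.17, adjusted p = 0.00837). All 6 knockdown libraries lay above SCR, and KD1 lay highest. That call was lost without KD1 library 2 (0.0727) or SCR library 2 (0.0774).

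The minor fibrillar chain COL5A3 was at 1.18 and 0.653 CPM in the SCR libraries, 2.50 and 2.06 in KD1, 0.535 and 0.900 in KD2 and 1.21 and 1.34 in KD3, and KD1 lay above all other H1 libraries. Its KD1 rise (1.32 ± 0.33, adjusted p = 0.0298) was lost without either KD1 library or SCR library 2 (adjusted p up to 0.202). COL18A1 was at 241 and 200.2 CPM in the SCR libraries, 192 and 201.3 in KD1, 249 and 217 in KD2 and 158 and 134 in KD3, and both KD3 libraries lay below the other H1 libraries. The KD3 fall (-0.60 ± 0.13, adjusted p = 0.0356) was lost without either KD1 library, either KD3 library or SCR library 1 (adjusted p up to 0.249).

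**Figure D4:**
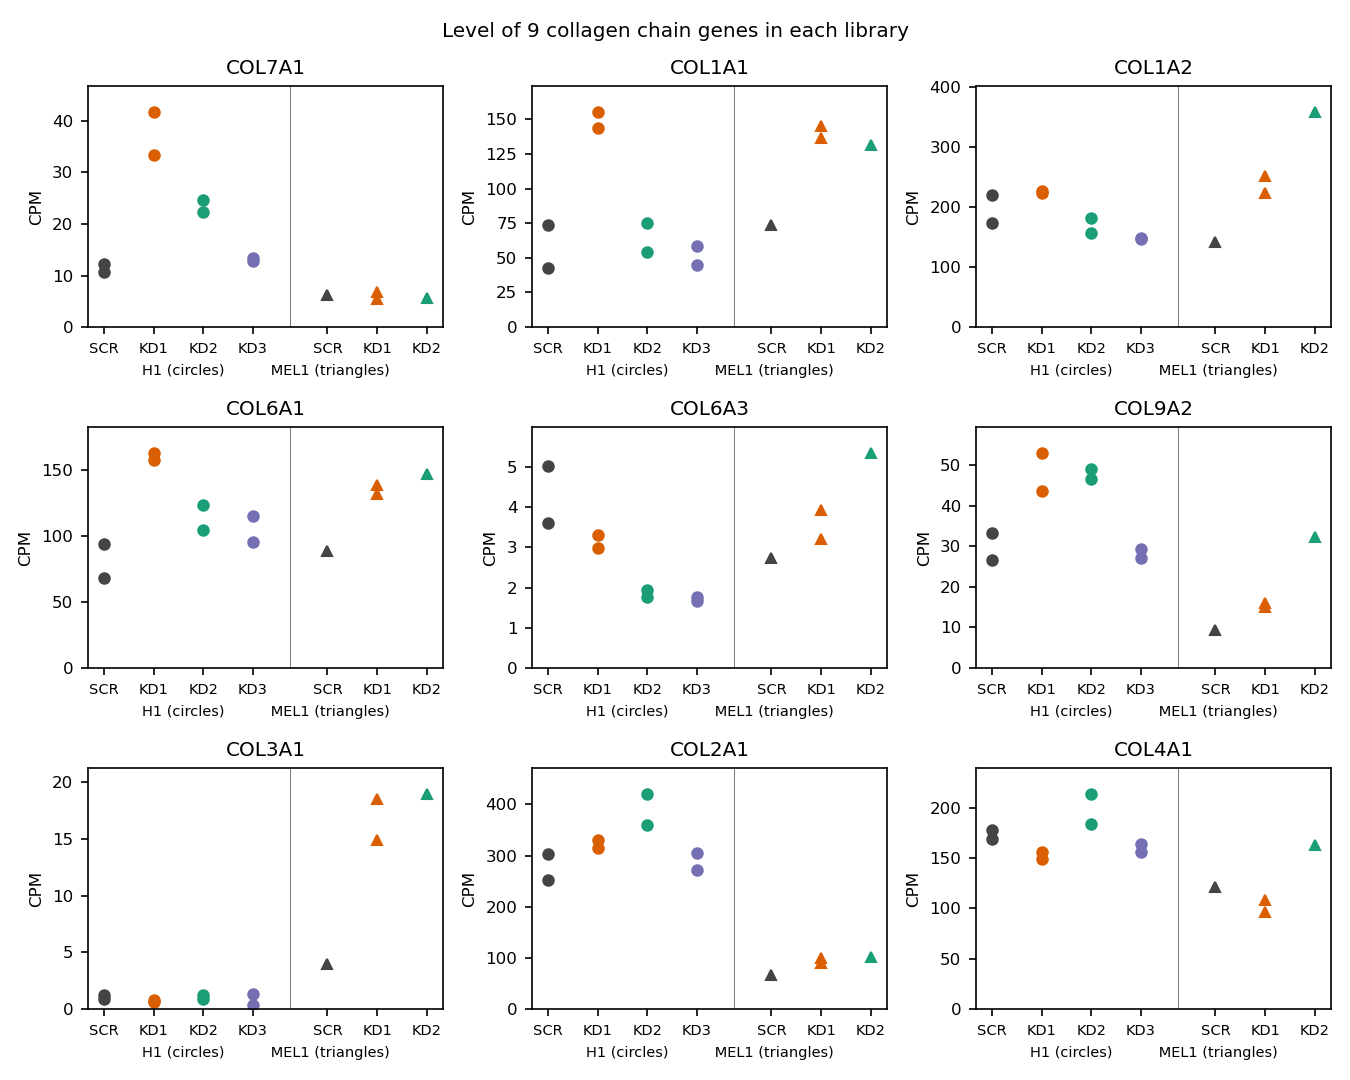
Level of 9 collagen chain genes in each library, in CPM on axes that start at 0 (circles H1, triangles MEL1, grouped by hairpin). COL7A1 rises from SCR to KD1 and KD2 in H1 and stays between 5.54 and 6.85 CPM in MEL1, COL6A3 is lowest in H1 KD2 and KD3, and COL3A1 is highest in the MEL1 knockdown libraries.

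The hairpins differed from each other at 7 collagens in H1 (COL1A1, COL5A3, COL7A1, COL9A1, COL9A2, COL16A1 and COL18A1), beside 3.54% of all tested genes. Between KD3 and KD1, 8 were called (4.63% of all tested genes, 2.61% higher and 2.01% lower). COL5A2 (0.79 ± 0.19, adjusted p = 0.0462) and COL25A1 (1.36 ± 0.34, adjusted p = 0.0492) were higher in KD3. COL1A1 (-1.54 ± 0.25, adjusted p = 0.0155), COL7A1 (-1.52 ± 0.17, adjusted p = 0.00194), COL6A2 (-1.02 ± 0.21, adjusted p = 0.026), COL16A1, COL9A2 and COL1A2 (-0.81, -0.78 and -0.61) were lower. Of these, COL5A2, COL25A1, COL6A2 and COL1A2 were not called by the joint test of any difference between hairpins. Whether the pairwise calls hold when a library is left out is not given here. COL25A1, a transmembrane chain of neurons, was at 2.20 and 3.60 CPM in the SCR libraries, 2.30 and 1.99 in KD1, 5.35 and 3.62 in KD2 and 4.65 and 6.37 in KD3. KD3 was below KD2 at COL7A1, COL9A2 and COL18A1 (1.01% of all tested genes called, 0.426% higher and 0.582% lower). Between KD2 and KD1 edgeR called none (0.851% of all tested genes, 0.711% higher in KD2). At an unadjusted edgeR p under 0.05 there were 13 of 42, beside 3850 of 24898 tested genes. DESeq2 called 5 between KD2 and KD1 (COL1A1, COL4A1, COL5A3, COL7A1 and COL9A1). With the GC and length trend removed edgeR called 6 there, 5 of them higher in KD2.

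The count of 7 fell to 1 without either KD1 library or KD3 library 2, to 3 without either KD2 library or KD3 library 1, and to 4 without either MEL1 KD1 library. The difference at COL7A1 (adjusted p = 0.00325) was called in all 17 alternatives. METTL14 itself was at 11.1 and 11.0 CPM in KD1, 17.7 and 14.8 in KD2 and 8.89 and 13.5 in KD3. Among markers, 3 of 6 neuroectoderm genes rose in KD1, 3 in KD2 and 2 in KD3, beside 4.25%, 0.691% and 1.19% of all tested genes. The summed level of the 6 was 362 to 465 CPM in SCR and 551 to 741 CPM in the knockdown libraries. The sum does not hold for each marker. SOX1 was at 23.5 and 23.7 CPM in SCR, 11.9 and 17.2 in KD1, 24.4 and 14.3 in KD2 and 33.0 and 39.7 in KD3. Of the 4 endothelium markers KDR fell in each hairpin, and their sum was 159 to 164 CPM in SCR and 64.0 to 93.9 CPM in the knockdown libraries. Most of that sum was KDR, at 153 and 157 CPM in SCR and 59.6 to 88.2 CPM in the knockdown libraries. CDH5, PECAM1 and TIE1 were at most 4.17 CPM in any H1 library. CDH5 and PECAM1 were below both SCR libraries in every H1 knockdown library. TIE1 was above both in KD1 and below both in KD2 and KD3. Of the 7 mesenchyme markers edgeR and DESeq2 called 0 in each hairpin. At an unadjusted p under 0.05 edgeR had 2, 0 and 1 in KD1, KD2 and KD3, beside 6617, 4000 and 4724 of 24898 tested genes. The mesenchyme sum was 29.6 to 34.5 CPM in SCR and 30.9 to 35.0 CPM in the knockdown libraries. The part of these shifts in the collagen changes was not tested.

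The knockdown in MEL1 by itself, with a single SCR library, was not tested, and its values are a description. Of the 42 tested collagens, 20 were higher in all 3 knockdown libraries than in SCR and 7 were lower, beside 31.6% and 25.7% of all tested genes. Among the 34 whose mean reached 1 CPM, 17 were higher and 3 were lower (COL12A1, COL14A1 and COL15A1). COL3A1, whose values stand with the lines, was among those higher. COL6A2 was at 47.8 CPM in MEL1 SCR, 114 and 115 in KD1 and 118 in KD2, and its ratio to SCR was close to equal in the 3 libraries (log2 1.25, 1.26 and 1.30). COL1A1 was at 73.6 CPM in MEL1 SCR, 137 and 146 in KD1 and 132 in KD2, and all 3 knockdown libraries were above SCR. The MEL1 SCR library has fewer counts than the other libraries. Level was taken, over 15601 genes, as the deviation from the mean of the line's own libraries. Its rank correlation with transcript GC content was -0.550 in MEL1 SCR, beside 0.351 and 0.434 in MEL1 KD1 and -0.0620 in KD2. The part of this trend in the MEL1 values was not tested.

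The KD1 and KD2 effect differed between the lines at 2 collagens, beside 0.598% of all tested genes (0.454% above 0 and 0.145% below). COL7A1 rose in H1 and was at 6.27 CPM in MEL1 SCR, 6.85 and 5.54 in KD1 and 5.69 in KD2, giving a difference, MEL1 minus H1, of -1.45 ± 0.26, adjusted p = 0.0445. COL1A2 was at 141 CPM in MEL1 SCR, 252 and 223 in KD1 and 358 in KD2, against 219.8 and 173 CPM in H1 SCR, 227 and 223 in H1 KD1 and 157 and 181 in H1 KD2, giving 1.06 ± 0.20, adjusted p = 0.0473. The median over all tested genes was 0.11 and near 0.01 under upper-quartile scaling, where, as under median-of-ratios scaling, COL1A2 was not called (adjusted p = 0.071 and 0.0623). Of the 11 fits that left out 1 library and could give this contrast, 2 kept COL7A1 (those without MEL1 KD1 library 1 or the MEL1 KD2 library) and 1 kept COL1A2 (without H1 SCR library 2), and the adjusted p of the others ran up to 0.1 for COL7A1 and 0.167 for COL1A2. Without the MEL1 KD2 library, where the contrast holds KD1 only, the COL1A2 difference was 0.56. With the GC and length trend removed both were called (COL7A1 -1.71 ± 0.26, adjusted p = 0.0123; COL1A2 0.96 ± 0.16, adjusted p = 0.0167). The MEL1 SCR group has 1 library, which is assumed to vary like the others.

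Genes that process collagen had 8 calls in KD1 and fewer in KD2 and KD3. Of 35 listed enzymes, chaperones and cross-linkers, 34 were tested, and in KD1 6 rose and 2 fell, in KD2 edgeR called none (10 at an unadjusted p under 0.05, and 3 called by DESeq2), and in KD3 1 fell. Over all tested genes 11.1% were called in KD1, 1.54% in KD2 and 2.98% in KD3, so KD1 had the most calls there too. In KD2, 4000 of the 24898 tested genes were at an unadjusted edgeR p under 0.05. LOX, which cross-links collagen and elastin, was at 0.333 and 0.218 CPM in H1 SCR and 3.87 and 2.18 in KD1 (3.45 ± 0.76, adjusted p = 0.0199). P4HA2, a subunit of the prolyl hydroxylase, was at 14.9 and 6.19 CPM in SCR and 55.7 and 37.3 in KD1 (2.14 ± 0.47, adjusted p = 0.0278), and ADAMTS2, which trims procollagen ends, also rose (1.08 ± 0.27, adjusted p = 0.0286). TLL2 (-1.10 ± 0.28, adjusted p = 0.0327) and the collagen galactosyltransferase COLGALT2 (-0.67 ± 0.12, adjusted p = 0.00853) fell. LOXL2 fell in KD3 (-0.59 ± 0.13, adjusted p = 0.0379). These 5 KD1 calls were lost without either KD1 library, and those of LOX, P4HA2, ADAMTS2 and TLL2 also without SCR library 2. ADAMTS2 was lost with the GC and length trend removed (0.86, adjusted p = 0.0561). LOX and TLL2 were lost without SCR library 1 as well, P4HA2 without either KD3 library, and LOXL2 in KD3 without KD3 library 2, either SCR library, or either library of KD1 or KD2.

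Of 16 laminins, nidogens and proteoglycans that share the basement membrane with type IV collagen, 3 rose in KD1 (LAMA5, LAMB1 and LAMB2), 2 in KD2 (LAMB1 and NID1), and LAMC1 fell in KD3 (-0.75 ± 0.12, adjusted p = 0.0106), beside 4.25% of all tested genes higher in KD1, 0.691% higher in KD2 and 1.79% lower in KD3. The LAMC1 call was lost without KD3 library 2 or SCR library 2. Those of KD1 were lost without KD1 library 1 or SCR library 2, and those of KD2 without either KD2 or either SCR library. LAMA5 and LAMB2 in KD1 were also lost without KD1 library 2. NID1 in KD2 was also lost without either H1 KD1 or either MEL1 KD1 library. With the GC and length trend removed the KD1 calls of LAMA5 (0.25 from 0.81, adjusted p = 0.0772) and LAMB2 (0.18 from 0.47, adjusted p = 0.225) were lost. Among the 6 type IV chains the lowest edgeR adjusted p against SCR was 0.327 in KD1 (COL4A1, -0.19 ± 0.11), 0.364 in KD2 (COL4A2, 0.25 ± 0.12) and 0.477 in KD3 (COL4A2, -0.18 ± 0.12). Of 15 collagen receptors and collagenases, 11 were tested, and MMP2 fell in KD1 (-0.45 ± 0.13, adjusted p = 0.0464), the receptor kinase DDR2 in KD2 (-1.60 ± 0.34, adjusted p = 0.046) and MMP14 in KD3 (-0.47 ± 0.11, adjusted p = 0.0456), beside 6.83%, 0.851% and 1.79% of all tested genes lower in KD1, KD2 and KD3. Each of these 3 calls was lost without any 1 library of its own hairpin or of SCR. DDR2 was also lost without any 1 H1 library of KD1 or KD3, and MMP14 without any 1 of KD1 or KD2 in H1. The MMP2 call was lost as well without either H1 KD2, either MEL1 KD1 or the MEL1 SCR library. Median-of-ratios and upper-quartile scaling lost MMP2 (edgeR adjusted p = 0.0641 and 0.105) and MMP14 (0.0515 and 0.0579). Between the lines, 26 of 34 processing genes (10 higher in MEL1, 16 lower), 10 of 16 basement membrane partners (5 and 5) and 4 of 11 receptors and collagenases (1 and 3) were called, beside 49.1% of all tested genes. All 4 receptor and collagenase calls were lost in at least 1 fit that left out a library. Without the MEL1 SCR library MMP2 was at 0.03 and DDR2 at -0.64. Some calls of processing genes and of basement membrane partners were lost under an alternative too. Among processing genes P3H2 was higher (2.01 ± 0.10, adjusted p = 3.44e-08) and COLGALT2 lower (-2.19 ± 0.09, adjusted p = 1.16e-08).

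Collagen transcripts had a higher median GC content than tested genes, with a wide range. Taking the longest coding transcript of GENCODE release 29, the median over the 44 genes was 55.3%, with a range of 41.3% to 67.4%, beside 48.8% over tested genes whose mean reached 1 CPM. The motif GGACT, a common context of the adenosine methylation that METTL14 takes part in, occurred at a median of 1.56 per kb in collagen transcripts, beside 0.933 per kb over the same tested genes, whose 90th percentile was 1.93. COL7A1 has 2.16 per kb and COL6A3 0.837. No methylation was measured, so these are letters in a sequence.

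The GC content moved with the KD1 fold changes. Across the 34 collagens whose mean reached 1 CPM, Spearman's rho between GC content and the KD1 log2 fold change was 0.589, and 0.381 with the GC and length trend of all genes removed. As fitted it was 0.117 for KD2 and -0.105 for KD3. The genes share their libraries, so these are descriptions across genes. The 6 collagens called in KD1 had GC contents of 61.1% (COL1A1) to 65.2% (COL9A2). The library trends with GC content, as deviations from the mean of the H1 libraries, differed within groups. The rank correlation was 0.222 and -0.416 in the 2 H1 SCR libraries and 0.300 and 0.557 in the 2 KD1 libraries. With the trend removed COL7A1 kept its KD1 rise (1.23 ± 0.16, adjusted p = 0.00129), as did COL1A1 (1.04 ± 0.24, adjusted p = 0.0279), COL6A1 (0.64 ± 0.11, adjusted p = 0.00384) and COL16A1 (0.61 ± 0.14, adjusted p = 0.0135).

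**Figure D5:**
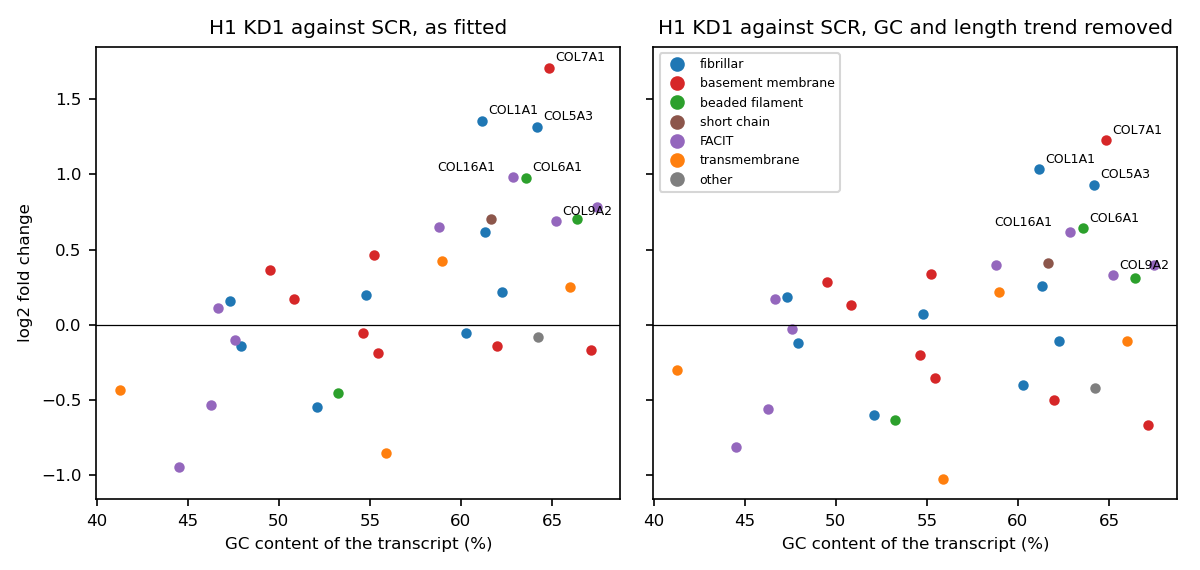
KD1 log2 fold change in H1 against transcript GC content in percent for the 34 collagen chain genes whose mean reached 1 CPM, as fitted (left) and with the GC and length trend of all genes removed (right); colours give the family. The 6 genes called as fitted are named, and COL7A1 stays highest in both panels.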

How the data were processed

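Total RNA libraries of embryoid bodies were analysed from the gene-level table that the authors deposited, which holds estimated counts. Per the submitters' processing notes, fastp and kallisto were used; their versions, the genome build, the annotation and the strand setting are not given in the sources used here. The 12 libraries form 7 groups of line and hairpin, mapped from the labels.

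Estimated counts were rounded and tested with the quasi-likelihood test of edgeR 4.0.16 (robust, TMM scaling, filterByExpr, 24898 genes kept; R 4.3.3), with group means for contrasts within and between lines and line plus knockdown for both lines. A gene was called at a Benjamini-Hochberg adjusted p under 0.05 over all tested genes. Between H1 hairpins any difference was tested jointly. CPM is the rounded count per 1000000 of the TMM-scaled library size, and CPM per kb divides by the longest coding transcript of GENCODE release 29. Alternatives were upper-quartile and median-of-ratios scaling, all genes with any count, DESeq2 1.42.0, removal of each library's spline trend on transcript GC content and length, subsets of libraries, and leaving out each library. The fitting code was tested on simulated data.

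Collagens called in a comparison, those with the highest level per kb, METTL14, and up to 3 called genes per direction from each comparison over the partner lists could be named. Not all of the latter are described, and 1 of them is not reported here. The members and lists were chosen with earlier results of these data known.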

Additional observations from a re-analysis of the deposited data

Results flagged for a closer look

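For 2 collagens the effect of KD1 and KD2 against SCR differed between the lines by a test of the difference itself (edgeR interaction contrast, MEL1 minus H1). COL7A1 had a difference of -1.45 on the log2 scale, with a rise in H1 in all 4 KD1 and KD2 libraries and MEL1 knockdown levels of 5.54 to 6.85 CPM beside 6.27 CPM in MEL1 SCR. COL1A2 had a difference of 1.06, with all 3 MEL1 knockdown libraries above the MEL1 SCR library. Both rest on that single MEL1 SCR library, the smallest of the 12. Within MEL1 it also has the lowest rank correlation of level (deviation from the line's mean) with transcript GC content. With each library's GC and length trend removed COL7A1 was at -1.71 and COL1A2 at 0.96, both called. Of the 11 fits that left out 1 library, 9 lost the COL7A1 call and 10 the COL1A2 call. The COL1A2 difference was 0.56 without the MEL1 KD2 library, where the contrast holds KD1 only. Median-of-ratios and upper-quartile scaling also lost the COL1A2 call. In the 6 H1 knockdown libraries no collagen among 29 examined had a library that stood apart.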

How the results depend on the processing

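Counts of collagens called depended on the processing. The share of all tested genes called was computed for the main fit only. A change in these counts therefore cannot be set beside the change over all genes. With DESeq2 they were 2 over both lines, 8 for the H1 hairpin average, 6 for KD2, 5 for KD3 and 14 for any difference between hairpins. Without the filter on low counts they were 9 for the average, 9 for KD2, 7 for KD3, 15 between hairpins and 6 for the difference between lines in the KD1 and KD2 effect. With the GC and length trend removed they were 6 for the average, 10 for KD1, 6 for KD3 and 12 between hairpins. With H1 libraries by themselves the average gave 5. Median-of-ratios and upper-quartile scaling each gave 1 for the difference between lines. The cause was not tested. Leaving out 1 library gave 0 to 1 over both lines, 0 to 4 for the average, 2 to 9 for KD1, 0 to 3 for KD2, 0 to 3 for KD3, 1 to 10 between hairpins, 22 to 29 between the lines and 0 to 1 for their difference in effect, which could not be fitted without the MEL1 SCR library. Without it that contrast has no control.

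Over 49 results for single collagens, 7 of them from the joint test between hairpins, which has no direction, 707 values under an alternative kept the call, 151 lost it and 2 turned: COL18A1 between the lines with the trend removed (0.17) and COL1A2 between the lines without the MEL1 KD2 library. Over the libraries left out in turn, the latter difference ran from -0.20 to 0.58. No paired analysis was possible because the labels give the groups no shared replicate numbers. Groups of 1 or 2 libraries limit every comparison of hairpins.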
